A study of Rattus norvegicus with 17 samples.

Results

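Collagens and the structural proteins laid down with them were followed in cultured fetal rat gubernaculum with and without insulin-like 3 (Insl3). The set holds 37 genes chosen by name for their place in the matrix, of which 36 had a probe set assigned to them alone (57 probe sets in all, of 31099 on the array). Thrombospondin 1 (Thbs1) had none in the probe table used here and was not analysed. Of the 57 probe sets, 50 passed the filter on low signal, which left 34 genes to test out of 10665 genes tested in the whole series. The cartilage collagen genes Col2a1 and Col9a1 did not pass: all 4 of their probe sets lay close to the lower limit of the scale, near 2.11, in nearly every array. The 34 tested genes comprised 7 fibrillar collagen chains, 6 basement membrane proteins, 4 short chain or beaded filament collagen chains, 3 fibril-associated collagens, 8 elastic fibre proteins and 6 adhesive or matricellular proteins.

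The tissue was the gubernaculum bulb of male fetuses of the Long Evans strain, taken on gestational day 17, with 2 bulbs cultured together as 1 biological replicate. Control cultures received no hormone. Treated cultures received Insl3 at 10 nM or 100 nM for 24 h, after a first 24 h without hormone that all cultures shared, in a serum-containing medium that also held insulin. The comparisons used 15 arrays, namely 6 controls, 3 at the lower dose and 6 at the higher. A further pair of 10 nM arrays, replicates 4 and 5, had been set aside by the submitters as outliers and entered no comparison unless this is stated. The bulb is a mixed tissue, so RNA per cell and the number of cells of a type cannot be told apart in these values.

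Insl3 is a peptide hormone of fetal Leydig cells that signals through the receptor Rxfp2, and in males the gubernaculum bulb swells under its influence while the cord shortens, which holds the testis near the inguinal region. The bulb is a loose mesenchyme whose bulk is mostly extracellular matrix, with muscle precursors at its rim. Fibrillar collagens give such a matrix tensile strength, fibril-associated collagens coat and space the fibrils, type VI and type VIII collagens build beaded filaments and networks around cells, basement membrane proteins line vessels and muscle, elastic fibres give recoil, and matricellular proteins tune how cells attach.

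Values are log2 signals per probe set, so a difference of 1 is a doubling, and levels are compared only within a gene because probe sets differ in brightness. RNA integrity numbers were 10 for every array that had one (not given for 10 nM replicates 1 and 2). Mesenchyme markers were clearly detected in all groups, with a list mean over 7 of 8 genes of 11.30 to 11.47 in controls, 11.32 to 11.46 at 10 nM and 11.39 to 11.78 at 100 nM, where the median of 11.65 was above the highest control. The median change of these 7 genes at 100 nM was -0.01, with 3 above 0, 4 below and the largest at 1.34. At 100 nM 1 of the 7 rose and 1 fell (8.15% and 3.98% of all tested genes). At 10 nM 1 rose and 2 fell (5.54% and 3.13%). Skeletal muscle markers (10 of 12 genes tested) averaged 11.62 to 11.82 in controls. Of 11 cartilage and bone markers, 7 had a probe set assigned to them alone. Of these 7, 3 passed the filter and Acan, Matn1, Ibsp and Bglap did not. A gene is said to have risen or fallen where the limma adjusted p was below 0.05 over all 18938 tested probe sets.

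At 100 nM, 5 of the 34 genes rose and 2 fell, against 8.15% of all tested genes that rose and 3.98% that fell. Those that rose were the type VIII chain Col8a1, the type VI chains Col6a1 and Col6a2, elastin (Eln) and fibrillin 2 (Fbn2). Those that fell were Col14a1 and Col5a2. The shares of the set were 14.7% and 5.88%, so its counts lie within a few genes of the background, and its median change of 0.04 was close to the 0.02 of all genes. Only Col8a1 and Eln lay wholly above the controls and Col14a1 wholly below them, where 4.51% and 1.36% of all genes did so.

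At 10 nM, 5 genes rose and 1 fell, against 5.54% and 3.13% of all tested genes. Col8a1 and Eln rose here as well, joined by Col15a1, fibulin 1 (Fbln1) and tenascin C (Tnc), and Col14a1 was again the gene that fell. The median change of the set was 0.22, against 0.06 for all genes. All 3 arrays lay above all controls for 7 of the 34 genes and below them for 1, against 10.2% and 4.67% of all genes. Both doses were compared with the same 6 controls, so their results are not independent of each other.

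**Figure D1:**
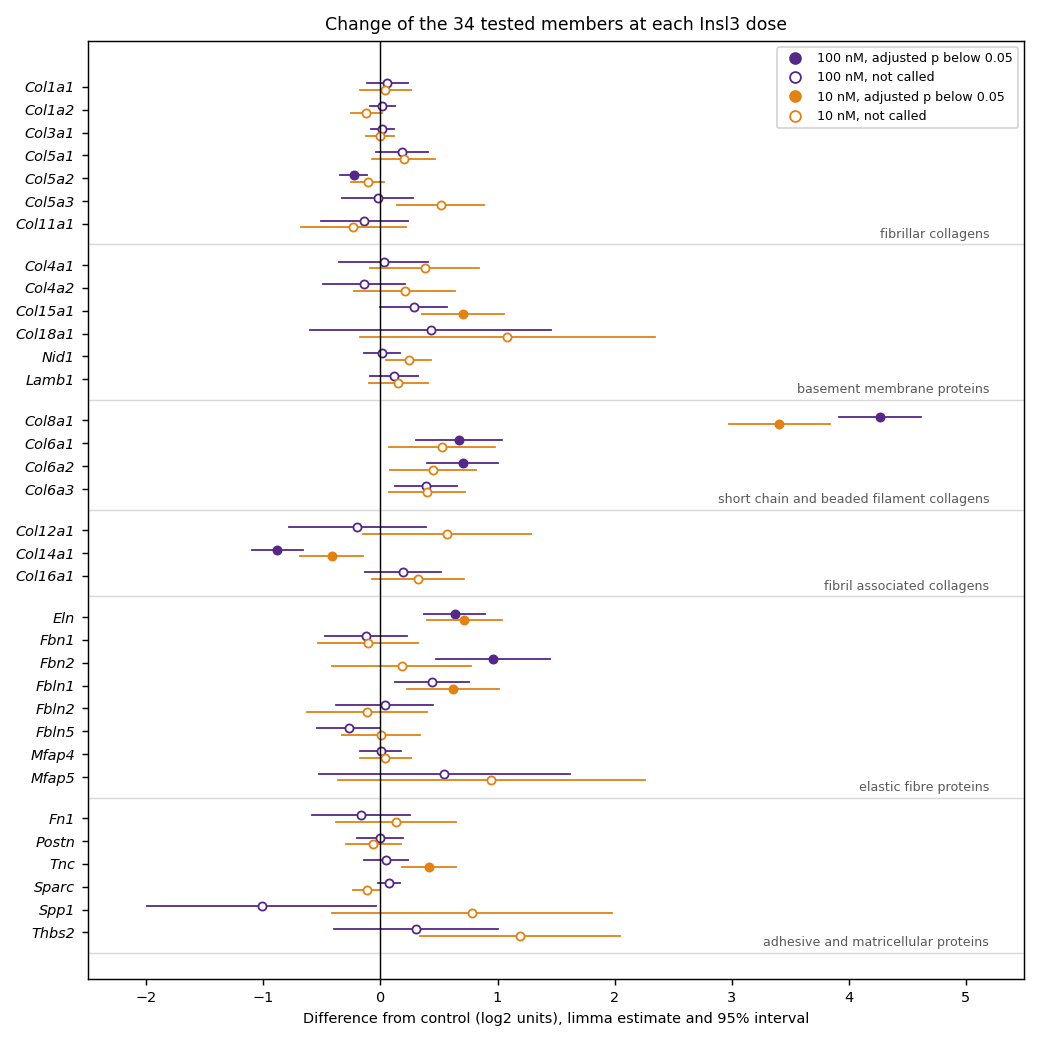
Change of each of the 34 tested genes from control (x axis, log2 units) at 100 nM (purple) and 10 nM (orange) Insl3, grouped by matrix class, with limma estimates and 95% intervals; filled points passed an adjusted p of 0.05. Col8a1 stands alone at 4.27 and 3.41, most others lie within 1 log2 unit of 0, and Col1a1, Col1a2 and Col3a1 have narrow intervals around it.

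Col8a1 encodes the alpha 1 chain of type VIII collagen, a short chain collagen that forms hexagonal networks around vessels and in the corneal endothelium's membrane. Its promoter is shown because this gene had the largest change of the set. The sequence is from RefSeq (rat assembly GRCr8, chr11:56246532-56246831, plus strand) and covers 300 bases around the annotated start, mostly upstream of it. The capitals mark the 4 places where a GC box (GGGCGG, read here on the opposite strand) was found, at positions -183, -92, -85 and -43 relative to the start.

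Col8a1: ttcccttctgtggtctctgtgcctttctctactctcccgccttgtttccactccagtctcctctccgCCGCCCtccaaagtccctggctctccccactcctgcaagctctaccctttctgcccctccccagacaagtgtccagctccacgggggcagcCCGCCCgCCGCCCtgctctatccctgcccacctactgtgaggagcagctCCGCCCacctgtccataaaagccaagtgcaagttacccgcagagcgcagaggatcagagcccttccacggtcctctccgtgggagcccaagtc

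A GC box occurs in 33.1% of the 33469 rat promoter windows of the same length, and in 14 of the 26 genes of the set that had one. The window holds no match to the full cAMP response element (TGACGTCA, in 1.83% of all windows), its shorter form (TGACG, 21.2%), the CCAAT box (37.5%), the TATA box (TATAAA, 14.2%), the AP-1 site (TGANTCA, 7.33%) or the nuclear receptor element AAAGGTCA (1.43%). Both strands were searched, and a TGACG match inside TGACGTCA was counted for both motifs. These are letter matches in 1 window and do not show where a factor binds.

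In the 6 control cultures Col8a1 lay at 2.14 to 2.71 with a median of 2.33, and 2 of these arrays were below the filter value of 2.28. The 3 cultures at 10 nM read 6.04, 5.52 and 5.69. At 100 nM the signal ran from 5.98 through a median of 6.76 to 6.99. Every treated culture was thus above every control, and all but the lowest 100 nM culture exceeded 6.04, the highest at 10 nM. The rise was 4.27 ± 0.16 log2 units at 100 nM (19.3-fold, SE, n = 6 and 6, limma adjusted p = 1.97e-09) and 3.41 ± 0.20 at 10 nM (10.6-fold, n = 3 and 6, adjusted p = 3.88e-07). Because the controls sit near the lower limit of the scale, the size of both fold changes is uncertain. Whether they are compressed was not tested. The step from 10 to 100 nM was 0.86 ± 0.20 (1.82-fold, 95% interval 0.43 to 1.29) and did not pass (limma adjusted p = 0.0514). Leaving out any 1 array, dividing the replicates or adding the erythroid level as a covariate did not end either call.

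The partner chain Col8a2, which is outside the set, also rose. Its controls lay at 7.68 to 8.95, the 10 nM cultures at 9.36, 10.29 and 9.11, and the 100 nM cultures at 9.50 to 10.38. Both treated groups were clear of the controls. The change was 1.73 ± 0.24 at 100 nM (3.32-fold, limma adjusted p = 0.000535) and 1.25 ± 0.30 at 10 nM (2.38-fold, adjusted p = 0.0142), the latter not passing without 10 nM replicate 2 (adjusted p = 0.0964). The 5 genes whose signals followed Col8a1 most closely over the 15 arrays, among all tested genes, were Gda (Pearson r = 0.987), Wnt2 (0.975), Tmem132c (0.971), Kitlg (0.969) and Agtr2 (0.968). These correlations include the step between control and treated cultures, which all of these genes share.

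Type VI collagen is a beaded filament around cells, assembled from 1 each of the chains of Col6a1, Col6a2 and a longer chain, usually that of Col6a3. The common chains Col6a1 and Col6a2 rose at 100 nM by closely similar amounts, Col6a3 missed the threshold, and the alternative long chains Col6a5 and Col6a6 fell.

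**Figure D2:**
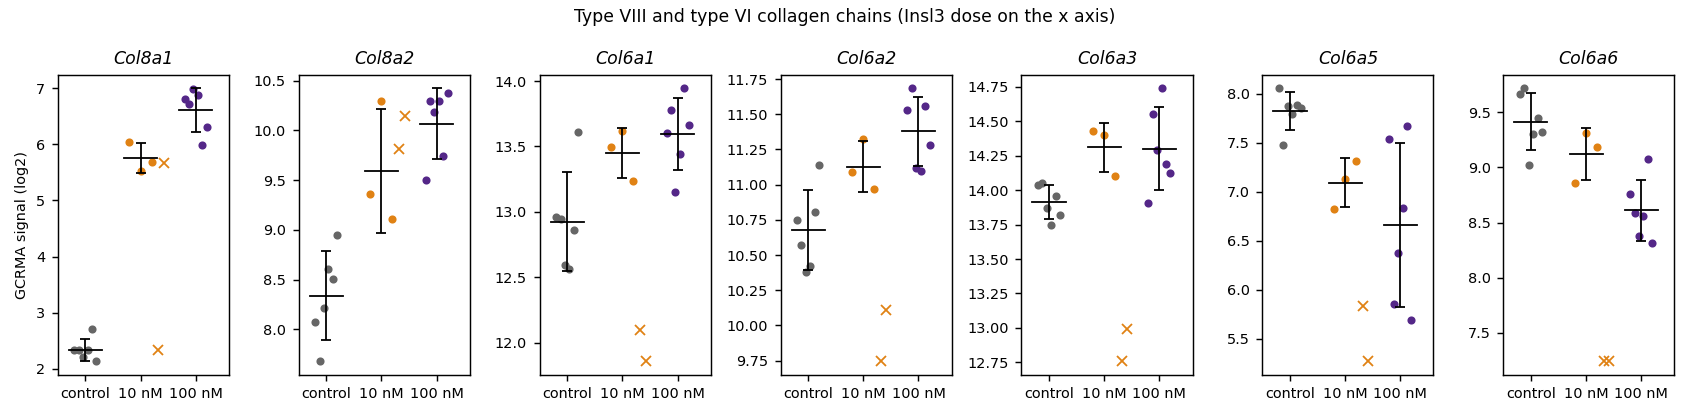
Signal (y axis, log2) of the type VIII chains and of 5 type VI chains in control, 10 nM and 100 nM cultures; each dot is 1 array, bars are mean ± SD, and crosses are the set-aside 10 nM arrays, which the bars leave out. Col8a1 and Col8a2 separate treated from control cultures, Col6a1, Col6a2 and Col6a3 overlap with the controls at 100 nM, and Col6a5 and Col6a6 lie lower there.

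Col6a1 lay at 12.56 to 13.61 in controls (median 12.90), at 13.50, 13.62 and 13.24 at 10 nM, and at 13.15 to 13.95 at 100 nM (median 13.63). A single control, replicate 6, reached the treated range, and the groups overlap through it. The rise at 100 nM was 0.67 ± 0.17 (1.59-fold, limma adjusted p = 0.0229), a call lost when any of 4 arrays was left out (adjusted p up to 0.0545). At 10 nM it was 0.53 ± 0.21 (adjusted p = 0.138).

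Col6a2 gave 10.38 to 11.14 in controls (median 10.66), 11.09, 11.33 and 10.97 at 10 nM, and 11.10 to 11.69 at 100 nM (median 11.40). Here too control replicate 6 alone overlapped the 100 nM group. The change was 0.70 ± 0.14 at 100 nM (1.63-fold, limma adjusted p = 0.00625) and 0.45 ± 0.17 at 10 nM (adjusted p = 0.120). A dim second Col6a2 probe set, near 3.09, moved by 0.16 and was not called (adjusted p = 0.262). With the mean of the erythroid marker list as a covariate the changes at 100 nM were 0.18 for Col6a1 and 0.32 for Col6a2, and neither was called.

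Col6a3 read 13.74 to 14.05 in controls (median 13.91), 14.43, 14.40 and 14.10 at 10 nM, and 13.91 to 14.74 at 100 nM (median 14.24). All 10 nM cultures were above all controls, and 1 of the 100 nM cultures, replicate 1, lay within the control range. The differences were 0.39 ± 0.12 at 100 nM (limma adjusted p = 0.0600) and 0.40 ± 0.15 at 10 nM (adjusted p = 0.122). Its second probe set gave 0.76 at 100 nM (adjusted p = 0.0973) but -0.02 at 10 nM. There the 10 nM cultures, at 5.60, 5.32 and 4.84, lay within the controls (4.73 to 5.62), so the probe sets disagree at that dose.

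Among the chains outside the set, Col6a5 fell from 7.48 to 8.06 in controls to between 5.69 and 7.68 at 100 nM (-1.16, limma adjusted p = 0.0258, lost when any of 4 arrays was left out). Col6a6 fell from 9.02 to 9.72 to between 8.31 and 9.07 (-0.80, adjusted p = 0.0033). Both ranges overlap at 1 end. Neither fall was called with all 17 arrays, within replicates 1, 2 and 6 or within replicates 3, 4 and 5. At 10 nM the differences were -0.73 (adjusted p = 0.255) and -0.29 (adjusted p = 0.344).

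Col6a1 and Col6a2 are neighbours in the rat gene table. Their deviations from the group means moved together over the 15 arrays, with Pearson's r of 0.88 and Spearman's rho of 0.85, and r was 0.81 without the 2 farthest arrays. The deviations of Col6a1 also followed those of Fbln1 (r = 0.89, rho = 0.93, 0.81 without 2 arrays), control replicate 6 being the highest control in both, while Col6a1 and Col6a3 showed no such relation (r = 0.02). The first pairs were picked among 45 for their size, and all values come from the same arrays, so they are descriptions only. The Col6a1 promoter window is given because it holds the single AP-1 match in the 26 windows of the set (RefSeq, GRCr8, chr20:11905440-11905739, plus strand). The capitals mark TGACTCA, which begins at position -99 relative to the start.

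Col6a1: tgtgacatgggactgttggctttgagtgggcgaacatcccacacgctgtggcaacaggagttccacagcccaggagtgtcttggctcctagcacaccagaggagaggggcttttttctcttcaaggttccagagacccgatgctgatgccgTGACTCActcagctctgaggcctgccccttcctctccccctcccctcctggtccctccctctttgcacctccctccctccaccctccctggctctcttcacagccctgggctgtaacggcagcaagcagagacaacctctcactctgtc

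The other windows of the set held TATA boxes in 4, CCAAT boxes in 9 and the short cAMP element in 1 of 26, and neither the full cAMP element nor AAAGGTCA in any.

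Of the 3 fibril-associated collagens, which bind the surface of collagen fibrils and limit their fusion, Col14a1 fell at both doses. Its controls lay at 12.64 to 12.99 (median 12.87), the 10 nM cultures at 12.43, 12.22 and 12.62, and the 100 nM cultures at 11.59 to 12.16 (median 11.99). Every treated culture was below every control, and the 100 nM group was below the 10 nM group. The change was -0.88 ± 0.10 at 100 nM (1.84-fold lower, limma adjusted p = 0.000113) and -0.42 ± 0.13 at 10 nM (1.34-fold lower, adjusted p = 0.0484). A second probe set gave -0.92 (adjusted p = 0.00025) and -0.58 (adjusted p = 0.0187). In that probe set the doses overlapped, with 10.55 to 11.14 at 100 nM and 11.02 to 11.47 at 10 nM. The 10 nM call of the first probe set was fragile, being lost in 11 of the 15 fits that left out 1 array (adjusted p up to 0.233), while the 100 nM call was lost in none. The step between doses was -0.46 (adjusted p = 0.0871). Col12a1, a relative expressed in tendon and fascia, changed by -0.20 ± 0.27 at 100 nM and 0.57 ± 0.33 at 10 nM, and Col16a1 by 0.19 ± 0.15 and 0.32 ± 0.18, with no call.

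Of the 7 fibrillar chains 1 passed the test at 100 nM. Col1a1 and Col1a2, the chains of type I collagen, differed from control at 100 nM by 0.06 ± 0.08 (95% interval -0.12 to 0.24) and 0.02 ± 0.05 (-0.09 to 0.12). Col3a1, the single chain of type III collagen, differed by 0.01 ± 0.05 (-0.08 to 0.11). These genes gave very bright signals, with control means of 14.90, 15.35 and 15.81 on a scale that ended at 16.9, where array response can flatten; how far that applies was not tested. At 10 nM the differences were 0.04, -0.12 and -0.01.

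Type V collagen starts and limits the diameter of type I fibrils. Its chain Col5a2 read 13.97 to 14.19 in controls (median 14.14), 14.01, 13.94 and 14.07 at 10 nM, and 13.81 to 14.03 at 100 nM (median 13.87). The groups overlap only by the highest 100 nM array and the lowest control. The fall was small, -0.23 ± 0.05 at 100 nM (1.17-fold lower, limma adjusted p = 0.0152), and a second probe set fell by 0.41 on the log2 scale (adjusted p = 0.00154). At 10 nM the difference was -0.11 (adjusted p = 0.353). Col5a2 lies beside Col3a1 in the gene table, and Col3a1 did not pass the test.

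Col5a1, the other main type V chain, differed by 0.18 ± 0.10 at 100 nM (limma adjusted p = 0.273). The dim Col5a3, with a control mean of 3.64, differed by -0.02 at 100 nM and by 0.52 ± 0.17 at 10 nM (adjusted p = 0.0757). Its 10 nM cultures spread over 3.63, 4.70 and 4.15. The identical value 3.59511 recurred in control replicates 2 and 4 and 100 nM replicates 3 and 5, so the size of these changes is uncertain. Col11a1, a cartilage-type fibrillar chain, differed by -0.14 at 100 nM.

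Among basement membrane proteins no gene passed the test at 100 nM under limma, and none had an unadjusted p below 0.05 there. Col15a1, whose product links basement membranes to the underlying fibrils, rose at 10 nM. It read 8.96 to 9.55 in controls (median 9.09), 9.75, 9.85 and 9.98 at 10 nM and 9.01 to 9.81 at 100 nM (median 9.44). The 10 nM cultures were above all controls, and the 100 nM cultures spanned both. The 10 nM change was 0.71 ± 0.16 (1.63-fold, limma adjusted p = 0.0121, but 0.0741 without 10 nM replicate 3), against 0.28 ± 0.13 at 100 nM (adjusted p = 0.193). The difference between doses, -0.42, did not pass (adjusted p = 0.275), and a second probe set gave 0.47 at 10 nM (adjusted p = 0.256).

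The other 5 basement membrane genes were not called. The type IV chains Col4a1 and Col4a2, the network core of every basement membrane, differed by 0.03 and -0.14 at 100 nM and by 0.38 and 0.21 at 10 nM. Nidogen 1 (Nid1), which bridges laminin and type IV networks, differed by 0.01 and 0.24 ± 0.09 (limma adjusted p = 0.106 at 10 nM), and the laminin chain gene Lamb1 by 0.12 and 0.15. Col18a1, the source of endostatin, was too scattered to resolve: controls ran from 6.12 to 8.55 and the 10 nM difference was 1.08 ± 0.59.

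**Figure D3:**
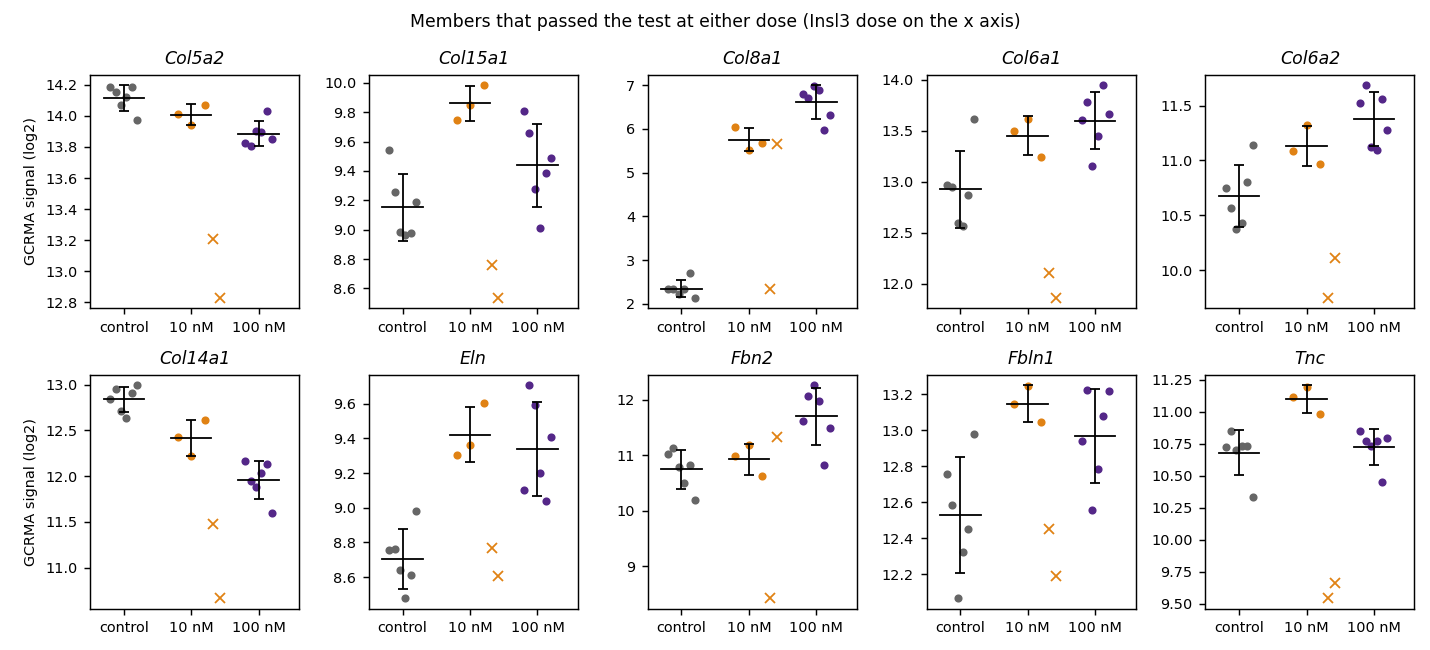
Signal (y axis, log2, a separate scale for each gene) of the 10 genes of the set that passed the test at either dose, in control, 10 nM and 100 nM cultures (x axis); dots are arrays, bars mean ± SD, and crosses the set-aside 10 nM arrays, left out of the bars. Col8a1 and Col14a1 separate treated from control cultures at both doses, Eln does so with a narrow gap, and Col15a1 and Tnc are highest at 10 nM.

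Elastic fibres consist of an elastin core on a scaffold of fibrillin microfibrils. Eln read 8.48 to 8.98 in controls (median 8.70), 9.30, 9.36 and 9.60 at 10 nM and 9.04 to 9.71 at 100 nM (median 9.31). No treated culture overlapped the controls. The rise was 0.64 ± 0.12 at 100 nM (1.55-fold, limma adjusted p = 0.00477) and 0.72 ± 0.15 at 10 nM (1.64-fold, adjusted p = 0.00648, but 0.0516 without 10 nM replicate 3). The doses differed by -0.08 (adjusted p = 0.895).

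Fbn2, the fibrillin typical of fetal tissue, was 10.20 to 11.13 in controls (median 10.81), 10.99, 11.18 and 10.62 at 10 nM and 10.83 to 12.26 at 100 nM (median 11.79). The 10 nM group overlapped the controls, with 1 of its 3 cultures just above the highest of them, and 1 of the 100 nM cultures lay within the control range. The 100 nM rise was 0.96 ± 0.23 (1.95-fold, limma adjusted p = 0.0152) and the 10 nM difference 0.18 ± 0.28 (adjusted p = 0.739). The doses differed by 0.78 ± 0.28 (adjusted p = 0.221), so a difference between them was not shown. Fbn1, the fibrillin that predominates after birth, differed by -0.12 at 100 nM (adjusted p = 0.676).

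Fbln1, a protein of microfibril and basement membrane surfaces, read 12.07 to 12.98 in controls (median 12.52), 13.15, 13.25 and 13.04 at 10 nM and 12.55 to 13.22 at 100 nM (median 13.01). The 10 nM cultures were just above the highest control, and the 100 nM group overlapped the controls. It rose at 10 nM by 0.62 ± 0.18 (1.54-fold, limma adjusted p = 0.0441), a call lost in 10 of 15 fits that left out 1 array (adjusted p up to 0.159). At 100 nM the difference was 0.44 ± 0.15 (adjusted p = 0.0762), and -0.01 once the mean of the erythroid markers entered as a covariate. Its second probe set gave 0.47 (adjusted p = 0.120) and, at 10 nM, 0.43 (adjusted p = 0.269).

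The remaining elastic fibre genes did not pass. Fbln2 differed by 0.03 at 100 nM and Fbln5, an elastin-binding fibulin, by -0.27 ± 0.13 (limma adjusted p = 0.193). Mfap4, a microfibril-associated protein, differed by 0.00. Mfap5 was near the lower limit in most arrays, and its 0.54 (adjusted p = 0.533) rests on few measurable signals.

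Of the adhesive and matricellular proteins, Tnc rose at 10 nM. It encodes tenascin C, a large matrix protein of embryonic and healing tissue that loosens cell attachment. It read 10.34 to 10.85 in controls (median 10.73), 11.12, 11.20 and 10.98 at 10 nM, and 10.45 to 10.85 at 100 nM (median 10.77). The 10 nM cultures were above all others kept, and the 100 nM group overlapped the controls throughout. The 10 nM rise was 0.42 ± 0.11 (1.34-fold, limma adjusted p = 0.0222), with adjusted p up to 0.108 when 10 nM replicate 1 or 2 was left out. At 100 nM the difference was 0.05 ± 0.09 (adjusted p = 0.774), and between doses -0.37 (adjusted p = 0.113).

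Fibronectin (Fn1), the provisional matrix protein that binds integrins, differed by -0.17 at 100 nM, periostin (Postn) by -0.00 and Sparc, which binds collagen and limits adhesion, by 0.07. Osteopontin (Spp1) was the most scattered gene of the class. It ran from 8.04 to 9.54 in controls (median 8.99), read 8.43, 11.10 and 9.44 at 10 nM and ran from 6.47 to 8.67 at 100 nM (median 7.98). The groups overlapped, and neither -1.02 ± 0.46 at 100 nM (limma adjusted p = 0.175) nor 0.78 ± 0.56 at 10 nM (adjusted p = 0.438) was called.

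Thrombospondin 2 (Thbs2), which restrains vessel growth and fibril width, read 4.15 to 4.93 in controls, 5.00, 5.84 and 6.84 at 10 nM and 4.37 to 6.18 at 100 nM. The 10 nM cultures lay above the controls but far apart from each other. The differences were 1.19 ± 0.40 at 10 nM (limma adjusted p = 0.0757) and 0.30 at 100 nM (adjusted p = 0.605). The adhesive class therefore had no call at 100 nM, where 1 of 6 genes was lower at an unadjusted p below 0.05, against 1119 of all 10665 genes.

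Between the doses none of the 34 genes passed the limma test, where 0.628% of all tested genes were higher at 100 nM and 0.15% lower. At an unadjusted p below 0.05, 4 were higher and 8 lower at 100 nM, against 479 and 592 of all 10665 genes. The arrays of the doses did not overlap, the 100 nM ones being higher, for 1 of the 34 genes, Sparc (2.73% of all genes), and, lower, for 2 (3.99%), Col14a1 and Tnc. The second probe sets of Sparc and Col14a1 did overlap between the doses, that of Sparc differing by -0.005. With only 3 arrays at 10 nM, the lack of calls does not show that the doses acted alike. The interval for Col8a1 given above left out 0, whereas that for Col1a1 ran from -0.20 to 0.24.

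Many genes that fold, modify and cross-link collagen rose. In this list, 13 of 21 tested genes (of 29 listed) rose at 100 nM, 61.9% of them, with a median change of 0.33, against 8.15% and 0.02 for all tested genes. The list was drawn up with earlier results of these data known, so the count is a description. The largest was Colgalt2, a collagen galactosyltransferase, at 1.73 ± 0.20 (3.32-fold, limma adjusted p = 8.95e-05), from 3.75 to 4.23 in controls to between 4.88 and 6.02. P3h1, a prolyl 3-hydroxylase, rose by 0.74 ± 0.08 (adjusted p = 6.19e-05), from 9.59 to 9.89 in controls to between 10.21 and 10.69. Neither gene overlapped with its controls.

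The other 6 of the 8 largest rises were Loxl3, a lysyl oxidase, at 0.60, the lysyl hydroxylase genes Plod3 at 0.55 and Plod1 at 0.39, the prolyl 4-hydroxylase subunit P4ha1 at 0.55, the collagen chaperone Fkbp14 at 0.40 and the galactosyltransferase Colgalt1 at 0.37. Other Colgalt1 probe sets gave 0.78, 0.20 and 0.09, the first of them called. The main cross-linking enzyme Lox (-0.13), the telopeptide lysyl hydroxylase Plod2 (0.01) and the collagen chaperone Serpinh1 (0.13) were not called. The count of 13 ran from 10 to 14 when 1 array was left out, and was 4 under the erythroid covariate and 7 with all 17 arrays. Within replicates 1, 2 and 6 it was 0, and within replicates 3, 4 and 5 it was 6.

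At 10 nM, 7 of the 21 rose (33.3%), among them Colgalt2 (1.45) and P3h1 (0.66), and 1 fell, against 5.54% and 3.13% of all tested genes. The count of 7 became 13 without control replicate 6, 4 without 10 nM replicate 1, and 3 without 10 nM replicate 2, without replicate 3 or with all 17 arrays. The gene that fell was Loxl2, a lysyl oxidase that acts on type IV collagen. It fell by 1.41 on the log2 scale, from 9.43 to 9.73 in controls to between 7.81 and 8.34 (limma adjusted p = 0.000775). At 100 nM it was -0.33 (adjusted p = 0.218). Its second probe set gave -0.22 at 10 nM and was not called, so the probe sets disagree.

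**Figure D4:**
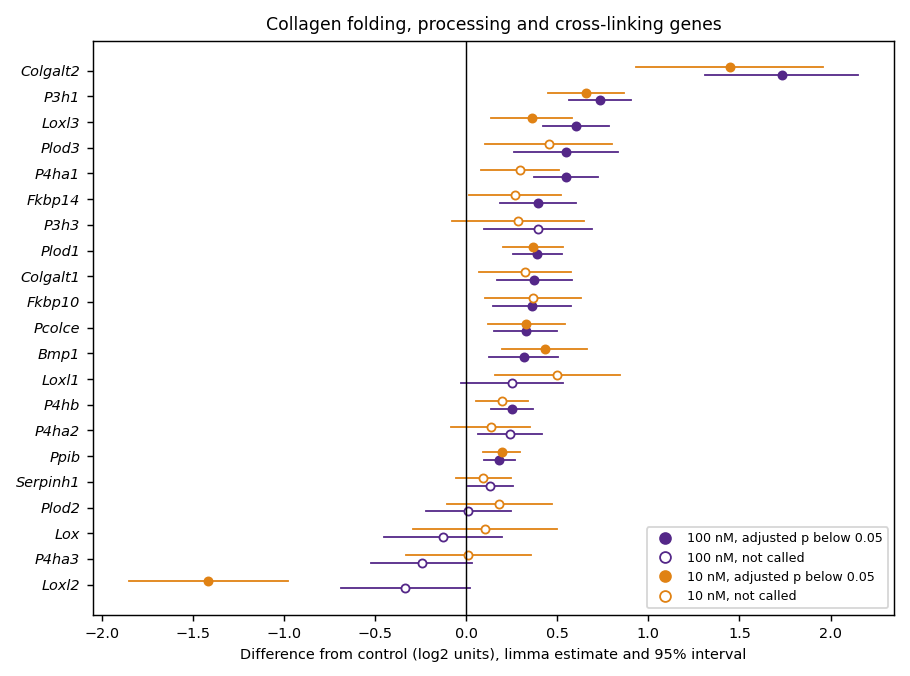
Change from control (x axis, log2 units) of the 21 tested genes that fold, process and cross-link collagen at 100 nM (purple) and 10 nM (orange), with limma estimates and 95% intervals; filled points passed an adjusted p of 0.05. Of these genes 13 rose at 100 nM, led by Colgalt2, while Lox and Plod2 lie near 0 and Loxl2 fell at 10 nM.

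For the lists that follow, the shares over all tested genes were again 8.15% higher and 3.98% lower at 100 nM, and 5.54% and 3.13% at 10 nM. With 10 to 16 genes tested per list, a count of 1 or 2 is near these shares. Other collagen chains outside the set (16 of 24 tested) included 2 that rose and 2 that fell at 100 nM and 3 that rose at 10 nM. The 2 falls became 1 without control replicate 1 or 5 or 100 nM replicate 2 or 6, with no filter or with the erythroid covariate. They became 0 with all 17 arrays, within replicates 1, 2 and 6 and within replicates 3, 4 and 5. Besides the type VIII and type VI chains above, Col7a1, the anchoring fibril collagen, rose by 1.50 ± 0.14 (2.82-fold) at 100 nM and 1.48 ± 0.18 at 10 nM, from 4.63 to 5.43 in controls to between 6.38 and 6.97 at 100 nM. Col13a1, a transmembrane collagen, rose by 0.90 at 10 nM (limma adjusted p = 0.0449), a call lost in 10 of 15 fits that left out 1 array.

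In elastic fibre assembly (10 of 12 tested), 3 genes rose at 100 nM (8.15% of all tested genes) and 4 at 10 nM (5.54%). The count at 100 nM became 1 with the erythroid covariate and 0 within replicates 1, 2 and 6. That at 10 nM fell to 1 without 10 nM replicate 1 or 3, to 2 without replicate 2 and to 0 with all 17 arrays. The genes were Emilin2, an elastin microfibril interface protein, at 0.83 at both doses, the microfibril protein Mfap2 at 0.51 and 0.41, and Efemp2, a fibulin needed for elastin cross-linking, at 0.38 and 0.52. Ltbp4, which binds latent TGF-beta to microfibrils, rose at 10 nM by 0.49 (limma adjusted p = 0.0341).

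Among other basement membrane genes (13 of 20 tested), 3 rose at 100 nM (8.15% of all tested genes) and 1 at 10 nM (5.54%). The count at 100 nM became 0 within replicates 1, 2 and 6. That at 10 nM was 3 without control replicate 6, and 2 without control replicate 1 or 2 or 100 nM replicate 5. Smoc1, a calcium-binding basement membrane protein, rose by 1.32 at 100 nM, pikachurin (Egflam), a dystroglycan ligand, by 1.17 and by 1.31 at 10 nM, and the laminin chain gene Lamb2 by 0.57.

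Other matricellular proteins (12 of 23 tested) gave 2 rises at 100 nM (8.15% of all tested genes), and 3 rises and 1 fall at 10 nM (5.54% and 3.13%). Leaving out any of 9 arrays, each of the 6 controls among them, with 10 nM replicate 3 and 100 nM replicates 2 and 5, left 1 rise at 100 nM. Without 10 nM replicate 3 there was 1 rise at 10 nM. Tgfbi, a collagen-binding adhesion protein, rose by 0.86 and 0.99, Thbs4 by 0.67 and 0.92, and Comp by 0.82 at 10 nM, while Ccn4 fell by 0.66 on the log2 scale at 10 nM.

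Among receptors for matrix (15 of 20 tested), 1 rose and 2 fell at 100 nM (8.15% and 3.98% of all tested genes), and 4 rose and 1 fell at 10 nM (5.54% and 3.13%). The rises at 100 nM were 2 without 100 nM replicate 1 or 3, and the fall at 10 nM was lost without 10 nM replicate 3. Itgb3, the integrin beta 3 chain, which pairs with alpha V to bind fibronectin and osteopontin, rose by 2.18 (4.54-fold) and by 1.75 (3.37-fold). It went from 5.96 to 6.72 in controls to between 8.18 and 8.99 at 100 nM. The collagen receptor kinase Ddr2 fell at both doses (-0.47 and -0.49, with no call for its other probe sets) and the thrombospondin receptor Cd36 at 100 nM (-0.81). At 10 nM the integrin chains Itgb1 and Itgav rose by 0.52 and 0.33. The dystroglycan gene Dag1 rose by 0.24 there, but another of its probe sets gave -0.61 (limma adjusted p = 0.0463).

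Markers of other cell types moved with dose as well. The mean of 8 tested erythroid genes (of 11) ranged over 7.08 to 9.31 in controls, 6.96 to 8.35 at 10 nM and 5.07 to 7.37 at 100 nM, and 6 of the 8 fell at 100 nM. The macrophage and leukocyte mean (12 of 12 genes) ranged over 9.81 to 10.40, 9.65 to 10.07 and 9.11 to 9.93. Of these genes 5 fell at 100 nM, where 3.98% of all tested genes did so. The endothelial mean (7 of 10 genes) ranged over 6.94 to 7.27, 7.25 to 7.53 and 7.38 to 7.998. Of these 7 genes 3 rose at each dose, against 8.15% of all tested genes at 100 nM and 5.54% at 10 nM. Their median change at 100 nM was only 0.08 and the largest 2.83, with 5 above 0 and 2 below. The part of these shifts in the changes of type VI, type VIII, elastic fibre and processing genes was not tested. A fit with the erythroid mean as a covariate cannot separate that part from the dose, since the mean itself averaged lower at 100 nM. Under this covariate Col8a1 (4.48) and Col14a1 (-1.01) kept their calls at 100 nM. Eln (0.61), Fbn2 (0.91) and Col5a2 (-0.19) lost theirs with changes close in size to those without the covariate, while the changes of Col6a1 and Col6a2 shrank to the values given above.

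Smooth muscle (6 of 7 tested), mesothelium and epithelium (6 of 8) and Schwann cell markers (3 of 7) had means of 8.09 to 8.70, 5.91 to 8.17 and 6.80 to 7.28 in controls. At 100 nM they ran from 8.23 to 8.97, 6.25 to 7.30 and 6.70 to 7.72, overlapping the controls, as did skeletal muscle (11.33 to 11.95) and cartilage and bone (4.84 to 5.33, against 5.04 to 5.55). Of all tested genes 8.15% rose and 3.98% fell at 100 nM, and 1 call in a list this short says little. At that dose 2 of 10 skeletal muscle, 1 of 6 smooth muscle and 1 of 3 cartilage and bone genes fell. Of 3 Schwann cell genes 1 rose and 1 fell. None of the 6 mesothelium and epithelium genes passed the limma test there or had an unadjusted p below 0.05. An earlier division of these arrays into replicates 1, 2 and 6 and replicates 3, 4 and 5 has no label behind it. Within each, the 100 nM change of Col8a1 was 4.34 and 4.20, that of Col14a1 -1.03 and -0.73, of Eln 0.57 and 0.70, of Fbn2 0.94 and 0.98, of Col6a1 0.51 and 0.84, of Col6a2 0.68 and 0.72, and of Col5a2 -0.28 and -0.18. With 3 arrays against 3, Col8a1 passed in both divisions, Col14a1 in the latter, and none of the other 5 in either.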

How the data were processed

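Total RNA was labelled as biotinylated cRNA and hybridised to Affymetrix 3' expression arrays, 1 per culture. The authors deposited log2 values per probe set made with GCRMA, per the submitters' processing notes; its version and the log base are not given in the sources used here, and base 2 was taken from the range of 2.11 to 16.9. Whether normalization included the 2 set-aside arrays is not given either. The submitters set them aside after a principal component analysis and for a low yield of labelled cRNA (25.66 and 33.68 µg per the labels). The number of arrays limits the precision.

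Of 31099 probe sets, 57 manufacturer's controls were dropped, and 18938 whose value exceeded 2.28 (the 40th percentile) in at least 3 of the 15 arrays were tested. Gene names came from GEO's platform annotation, which can be old; 20832 of the probe sets it lists carried 1 gene, 436 several, and none was named from the latter. The probe set of highest mean stood for a gene. A single limma model (version 3.58.1, lmFit and eBayes, in R 4.3.3) covered the 3 groups, with 2-sided tests, Benjamini-Hochberg adjustment over the tested probe sets of each comparison and a threshold of 0.05. Errors of changes are moderated standard errors. The steps were tested on simulated data.

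The genes of the set, the pathway and marker lists and the alternatives were chosen with earlier results of these data known. Members called in any comparison are given in full, other members by change, listed pathway genes up to 8 per list by size. Alternatives covered leaving out each array, the replicate number as a block, the set-aside arrays, normalization, the filter, the variance model, the mean of a gene's probe sets, a division of the replicates, an erythroid covariate and fits of the compared groups alone. The labels give no shared litter, batch or day for a replicate number, and the numbers were not treated as pairs. Promoter windows were from RefSeq (GRCr8) and matched 26 of 37 genes.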

Additional observations from a re-analysis of the deposited data

Results flagged for a closer look

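In 7 of 68 gene and group combinations with 6 arrays, 1 array stood apart from the other 5. Chance would mark about 1 group in 20 if the values were independent and well above the lower limit. Here the genes share the same arrays, Col8a1 in controls and Mfap5 lie near that limit, and the dim Col5a3 repeats a value at 100 nM. The count is therefore a description, and whether it exceeds chance was not tested. At 100 nM, replicate 1 was the odd array for Col5a3 (4.00, nearest 3.60), Fbln5 (6.42, nearest 6.94) and Mfap5 (5.30, nearest 3.16), and replicate 5 for Tnc (10.45, nearest 10.73). Among controls, replicate 6 was low for Postn (13.91, nearest 14.26) and Tnc (10.34, nearest 10.70), and replicate 5 was high for Col8a1 (2.71, nearest 2.33).

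The effect of the doses differed by the test of the difference itself for 3 genes related to the set. Loxl2 was higher at 100 nM than at 10 nM by 1.08 (limma adjusted p = 0.0244), Itgav lower (-0.36, adjusted p = 0.0267) and Itgb1 lower (-0.34, adjusted p = 0.0412). Leaving out 1 array ended these calls for 4, 5 and 10 of the 15 arrays, respectively.

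In the set-aside 10 nM replicate 5, Col8a1 was 5.66, above the highest control at 2.71, and Fbn2 was 11.34, above the highest control at 11.13. The other set-aside array, replicate 4, did not share this. There Col8a1 was 2.33, within the control range, and Fbn2 was 8.43, below the lowest control at 10.20.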

How the results depend on the processing

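Of the genes called at 100 nM, Col8a1, Col6a2, Eln, Fbn2, Col14a1 and Col5a2 kept their calls whichever of the 15 arrays was left out. The number that rose at 100 nM, 5, became 2 with all 17 arrays, 1 with the erythroid mean as a covariate, and 1 within replicates 1, 2 and 6 and within replicates 3, 4 and 5. The number that fell, 2, became 0 with all 17 arrays, 0 within replicates 1, 2 and 6, and 1 with the erythroid covariate. With all 17 arrays the size of the 100 nM changes was the same and the spread wider, and with the covariate Eln (0.61) and Fbn2 (0.91) changed little in size. The rises at 10 nM, 5, became 1 with all 17 arrays and 3 with the mean of a gene's probe sets, and ran from 2 (without 10 nM replicate 3; 3 without replicate 2) to 7 when 1 array was left out. The fall at 10 nM, Col14a1, was lost (0) with no filter and with the division as a term, and the count ran from 0 to 1 when 1 array was left out. Between the doses, 1 gene was higher with medians centred, with the stricter filter and with the division as a term, 2 with a trended robust variance, and 1 was lower with the erythroid covariate; leaving out 1 array gave 0 to 2 higher (2 without 100 nM replicate 5) and 0 to 1 lower. Same-numbered arrays deviated together in part: of 12 pairs, 6 had r over 0.1 (range -0.07 to 0.20, median of other pairs -0.03), and 2 of 15 arrays correlated best with their own number. With the replicate block, 6 rose and 2 fell at 100 nM, 5 rose and 0 fell at 10 nM, and 0 passed between the doses.

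With all 17 arrays the 10 nM change turned to -0.18 for Tnc, -0.15 for Bmp1, -0.38 for Ltbp4 and -0.12 for Thbs4, and the Itgb1 difference between doses to 0.028. Dag1 at 10 nM turned to -0.24 with the mean of its probe sets. The cause was not tested. Over all genes, 869 rises and 424 falls at 100 nM became 489 and 160 with all 17 arrays, 262 and 135 with the erythroid covariate, and 51 and 10 within replicates 1, 2 and 6. Falls were 268 with no filter. The 591 rises at 10 nM became 247 without 10 nM replicate 3. The 67 higher and 16 lower between doses became 2 and 0 in fits of the compared groups alone, and 135 and 70 with the division as a term. They were 1 and 0 without 10 nM replicate 3, and 161 and 31 without 100 nM replicate 5.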

Other observations

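The 2 set-aside 10 nM arrays read low for many matrix genes. Both lay below all 15 kept arrays for 23 of the 34 tested genes (67.6%), against 1686 of 10665 tested genes (15.8%), and both lay above them for none of the 34, against 8.35% of tested genes. Col1a1 read 13.88 and 13.62 there, Col5a2 13.21 and 12.83, and Col6a3 12.76 and 12.99. The pair differed from each other in Col8a1, which was 2.33 in replicate 4 and 5.66 in replicate 5.

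Replicates of the set had a wider median spread than all tested genes in each group. The median SD over its 34 genes came to 0.21 (control), 0.16 (10 nM) and 0.27 (100 nM), against 0.19, 0.10 and 0.17 over all tested genes. The genes were not matched for signal level, and the part of signal level in this difference was not tested. The widest were Col18a1 in controls (SD 0.92), Spp1 at 10 nM (1.35) and Mfap5 at 100 nM (1.27).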
